A study of Mus musculus with 8 samples.

Results

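The nectins and nectin-like molecules are immunoglobulin superfamily proteins with which epithelial cells hold on to each other and to other cells. The genes described here are Pvrl1, Pvrl2, Pvrl3 and Pvrl4, which encode nectin-1 to nectin-4, Pvr, which encodes the poliovirus receptor homolog (nectin-like molecule 5), Cadm1 and Cadm4, which encode the nectin-like molecules 2 and 4, and Mllt4, which encodes afadin. These 8 genes were taken by symbol from the 24052 gene symbols of the count data. The list was drawn up with earlier results of these libraries known, among them the high Pvrl3 level in the mutant clone. The values of Pvrl3 in the comparison of the 2 cell types are therefore given as a description without a test, and nothing is read from how many genes of the list differed between the cell types.

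The libraries came from mTEC 3.10, a line of medullary thymic epithelial cells (mTECs) of C57BL/6 background. WT cells carried wild-type Aire. E6 is a single clone of the same line made with Crispr-Cas9 against Aire, the gene of the autoimmune regulator. The labels give the E6 genotype as Aire +/-, whereas the methods of the study describe mutations in both alleles. Each cell type was sequenced before adhesion (no thymocytes) and after adhesion, that is after 12 h of co-culture with 50 thymocytes of C57BL/6 mice per mTEC. There were 2 libraries in each of the 4 conditions, and replicates were labelled as separate samples without a statement that they came from separate cultures, so that p-values measure the spread between these libraries. The mTECs had been cultured for 24 h in replicate 1 of both E6 conditions and replicate 2 of WT after adhesion and for 12 h in the other 5 libraries. For E6 before adhesion, the protocol text mentions a co-culture whereas titles and source names do not, and the titles were followed.

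Libraries held 13506610 to 20145154 counts on genes. Aire itself had 0 counts in the 4 libraries before adhesion and 0 and 3 counts in the 2 libraries of each cell type after adhesion, so its mRNA did not check the genotype labels. Of 16 epithelial and mTEC markers, Epcam (537 to 643 CPM), Krt8 (1377 to 2040 CPM) and Cdh1 (825 to 1028 CPM) were high in the 8 libraries. Krt14, Krt18 and Cldn4 were at 267 CPM or more, and Foxn1 was at 11.1 to 14.8 CPM. Krt5 was low, at 0.213 to 1.02 CPM, and Cldn3 and Fezf2 were at most 0.12 CPM. Psmb11 and Enpep, which mark cortical rather than medullary thymic epithelial cells, had 0 counts. The mature mTEC markers Cd80, H2-Aa and Tnfrsf11a were at or near 0 (at most 1.14 CPM). CPM, the usual depth-normalised count, was computed with TMM-scaled library sizes. The sum of 15 thymocyte markers was 4.98 to 7.96 CPM before adhesion, 26.3 to 36.9 CPM in WT after adhesion and 132 to 161 CPM in E6 after adhesion, and 8 to 11 of the 15 had 0 counts in each library before adhesion, among them Cd8b1, Cd247 and Dntt in all 4. Gata3 made up most of the sum before adhesion, at 4.45 to 6.63 CPM. The sum of 10 markers of other thymic cells was 0.589 to 6.82 CPM. Replicate 1 of WT after adhesion stood apart. In that library 66.7% of alignments were counted on genes, against 75.7% to 78.8% in the others. Its log2 levels fell by 0.445 per 10% of transcript GC content, against slopes of -0.016 to 0.139 in the others. Chi-square per gene between replicates, against counting error alone, was 136.6 in WT after adhesion and 3.41 to 8.17 in the other conditions. Fits that left out 1 library of WT after adhesion dropped this pair from the shared estimate of spread. Their FDRs therefore cannot be set beside those of the other fits. Counts given below over the 8 fits that left out 1 library include these 2 fits.

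Nectins are transmembrane proteins that pair within one cell and then bind nectins or nectin-like molecules on the facing cell without calcium. Afadin binds their cytoplasmic tails and links them to actin, and through it nectin contacts are joined to cadherin junctions. Pvr, nectin-2 and nectin-3 are also bound by immune receptors such as Tigit, Cd96 and Cd226 on T and natural killer cells, and Cadm1 is bound by Crtam. Cadm proteins connect instead to membrane-associated guanylate kinases and protein 4.1 family members.

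All 8 mRNAs were detected in all 8 libraries and passed the filter on low counts, which kept 11672 genes. Per length of merged exons, afadin was the most abundant mRNA of the family and nectin-3 the least abundant in both cell types. In WT, Mllt4 was at 51.2 ± 4.1 CPM per kb (SD, n = 4). Pvrl2 (20.5 ± 3.5), Pvrl4 (20.04 ± 4.2) and Cadm4 (15.3 ± 3.5) followed at levels that overlapped between neighbours. Pvr (4.11 ± 0.29), Pvrl1 (3.90 ± 0.35) and Cadm1 (3.81 ± 0.40) made a lower group that also overlapped. Pvrl3 was at 0.0709 ± 0.039 CPM per kb, below every other member in each WT library.

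In E6 the order was similar at the ends. Mllt4 was at 55.2 ± 2.5 CPM per kb (SD, n = 4), followed by Pvrl4 (28.3 ± 2.2) and Pvrl2 (25.6 ± 1.0), which overlapped, and by Cadm4 (17.5 ± 2.3). Cadm1 (6.70 ± 0.67), Pvrl1 (5.79 ± 0.49) and Pvr (5.54 ± 0.60) could not be ordered beyond their spread. Pvrl3 was at 1.61 ± 0.090 CPM per kb, still the lowest level of the family. These levels depend on the length used. With the longest transcript instead of merged exons, Pvr and Cadm1 were at 8.66 and 8.35 CPM per kb in WT and were separated from Pvrl1.

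**Figure D1:**
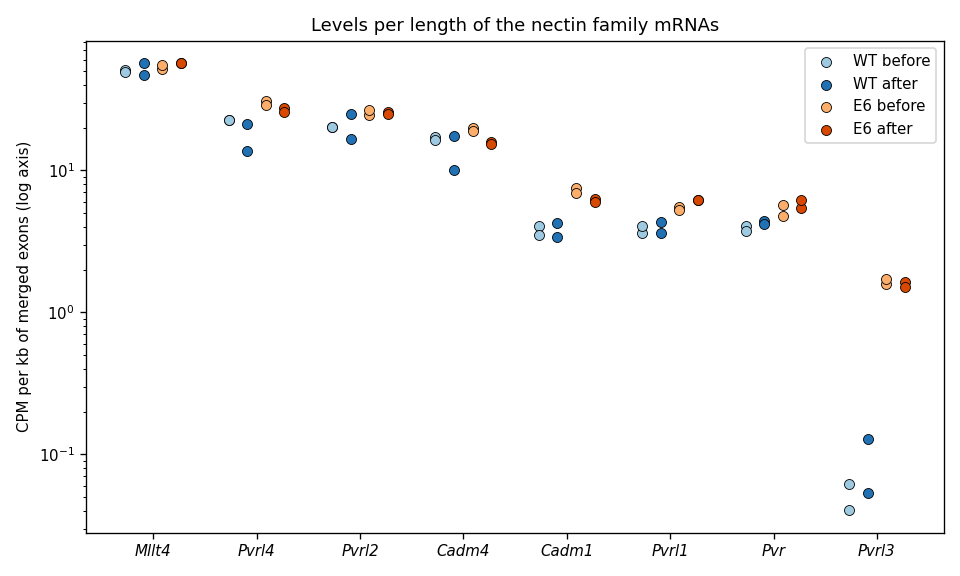
Levels of the 8 mRNAs in CPM per kb of merged exons on a log axis, with 1 point per library and 2 libraries per condition, grouped by gene. Mllt4 lies at the top (means of 51.2 in WT and 55.2 in E6) and Pvrl3 at the bottom, with the 4 E6 points of Pvrl3 near 1.61 and the 4 WT points near 0.0709.

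Pvrl3, the gene of nectin-3, had the widest separation between the cell types. It lies on the minus strand of chromosome 16 (GRCm38, 46387706 to 46498525). Its counts in WT were 13 and 7 before and 23 and 14 after adhesion, and in E6 they were 290 and 409 before and 346 and 321 after adhesion. In CPM, WT was at 0.789 and 0.516 before and at 1.63 and 0.677 after adhesion, and E6 was at 20.1 and 21.9 before and at 20.7 and 19.2 after adhesion. The lowest E6 library was thus far above the highest WT library, which was the library that stood apart. The log2 FC of E6 against WT was 4.57 ± 0.25 (SE), a 23.8-fold difference, averaged over adhesion. It was 4.97 ± 0.36 before and 4.18 ± 0.34 after adhesion. Leaving out replicate 1 of WT after adhesion moved the value after adhesion to 4.90, close to the value before adhesion.

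Among the 4 nectins, Pvrl3 made up 2.53% to 2.73% of the summed CPM per kb in the E6 libraries and 0.0867% to 0.368% in the WT libraries. Nectin-2 and nectin-4 together held most of the sum in each library. Among tested genes above a limit on mean log2 CPM, the median log2 FC was 0.10 for the 317 of chromosome 16. It was 0.0041 for the 22 within 5 Mb of Pvrl3. Around the other genes of the family the median within 5 Mb ran from -0.10 (Mllt4) to 0.15 (Pvrl2 and Pvr). For chromosome 7, which holds Pvrl2 and Pvr, it was 0.027. The part of the chromosomal region in these values was not tested.

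For a view of the regions from which the extremes of the family start, the 250 bases before the RefSeq start of Pvrl3 (GRCm38.p6, chr16:46496968-46497217, minus strand) and of Mllt4 (chr17:13760291-13760540, plus strand) are shown, 5′ to 3′. Pvrl3 is the member with the widest difference between WT and E6 and Mllt4 the one with the highest and steadiest level. In GENCODE the 5′ end of Pvrl3 is at 46498525, so the Pvrl3 region shown lies inside the gene in that annotation. Capitals mark GC boxes (GGGCGG or its reverse complement CCGCCC).
Pvrl3: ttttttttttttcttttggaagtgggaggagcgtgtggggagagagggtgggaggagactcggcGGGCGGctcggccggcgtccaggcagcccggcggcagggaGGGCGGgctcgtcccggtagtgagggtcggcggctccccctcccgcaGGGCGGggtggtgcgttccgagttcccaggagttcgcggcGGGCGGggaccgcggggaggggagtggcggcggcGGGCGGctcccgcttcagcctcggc
Mllt4: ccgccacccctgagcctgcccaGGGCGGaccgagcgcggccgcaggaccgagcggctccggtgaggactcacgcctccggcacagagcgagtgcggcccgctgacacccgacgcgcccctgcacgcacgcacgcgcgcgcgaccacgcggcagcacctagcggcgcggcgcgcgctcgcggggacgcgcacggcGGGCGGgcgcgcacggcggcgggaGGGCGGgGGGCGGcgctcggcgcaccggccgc

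Both regions are rich in GC, with 73.2% in Pvrl3 and 82.8% in Mllt4 against a median of 52.4% over 32851 promoter regions, and they hold 30 and 51 CpG dinucleotides against a median of 6. The Pvrl3 region holds 5 GC boxes and the Mllt4 region 4, a motif found in 32.7% of all these regions. The other motifs searched on both strands were CCAAT (in 33.8% of regions), TATAAA (12.4%), TGANTCA (6.75%), CACCTG (17.2%), AACCNGTT (1.79%) and an NF-kB site (0.14%), and neither region holds these letters. The table had an entry for 5 of the 8 genes and not for Pvrl1, Pvr and Cadm1.

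Pvrl1 encodes nectin-1, a partner of nectin-3 and nectin-4 across cell contacts. The gene lies on the plus strand of chromosome 9 (43743984 to 43807461). Pvrl1 was at 20.3 and 22.9 CPM in WT before and at 24.4 and 20.5 CPM in WT after adhesion. The E6 values were 31.3 and 29.6 CPM before and 35.1 and 35.0 CPM after adhesion. The 4 E6 libraries lay above the 4 WT libraries without overlap. Averaged over adhesion the log2 FC was 0.57 ± 0.099 (SE), which passed the FDR limit (edgeR quasi-likelihood test, FDR = 0.00864) and was a 1.48-fold difference, just under the FC limit of 1.5. Without replicate 1 of WT after adhesion the log2 FC was 0.65, above the FC limit. Without the filter on low counts it was 0.59, past both limits. After a correction for GC content the log2 FC was 0.42 and the FDR limit was not passed (FDR = 0.108). The FDR was also above the limit, at up to 0.0590, in the fits without replicate 1 or 2 of E6 after adhesion or without replicate 1 of WT before adhesion.

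Pvrl4 encodes nectin-4, which binds nectin-1 and is found mainly in epithelia, and lies on the plus strand of chromosome 1 (171370099 to 171388598). It was at 85.4 and 84.2 CPM in WT before and at 51.6 and 79.1 CPM in WT after adhesion. Levels in E6 were 115.6 and 108.9 CPM before and 102.6 and 96.8 CPM after adhesion. The groups did not overlap, and the lowest of the WT values was that of replicate 1 after adhesion. The log2 FC was 0.51 ± 0.13 (SE) with an FDR of 0.0356 by edgeR, and the log2 FC was 0.38 without that replicate. Without replicate 2 of WT after adhesion it was 0.69, above the FC limit. The FDR limit was passed in 2 of the 8 fits that left out 1 library, those without a library of WT after adhesion, and FDRs in the 8 fits reached 0.134.

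Pvrl2 encodes nectin-2 and lies on the minus strand of chromosome 7 (19716644 to 19750483). An antisense gene, Gm20512, shares 135 bases or 3.86% of its exons, and reads from both cannot be told apart where the counting did not use strand. It was at 71.0 and 70.2 CPM in WT before and at 57.9 and 87.9 CPM in WT after adhesion. The corresponding E6 levels were 85.2 and 93.8 CPM before and 90.4 and 87.9 CPM after adhesion. One WT library after adhesion reached the E6 range, and the log2 FC of 0.31 ± 0.13 (SE) did not pass by edgeR (FDR = 0.135; 95% CI 0.0062 to 0.62). The log2 FC was 0.20 without replicate 1 of WT after adhesion and 0.50 without replicate 2, both under the FC limit.

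Pvr lies on the minus strand of chromosome 7 (19903578 to 19921160). The protein is a cell surface ligand of Tigit, Cd96 and Cd226 and binds nectin-3 on facing cells. Its mRNA was at 24.9 and 22.9 CPM in WT before and at 27.2 and 25.7 CPM in WT after adhesion. In E6 it was at 35.0 and 29.3 CPM before and at 33.1 and 38.2 CPM after adhesion, above WT in all libraries. The log2 FC of 0.43 ± 0.10 (SE), a 1.35-fold difference, passed the FDR limit but not the FC limit (FDR = 0.0257 by edgeR). It passed in the 2 fits without a library of WT after adhesion and in none of the other 6 that left out 1 library, with FDRs up to 0.121.

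Cadm1, a nectin-like adhesion molecule of epithelia that binds Crtam on T cells, lies on the plus strand of chromosome 9 (47530173 to 47857637). Cadm1 was at 42.2 and 36.8 CPM in WT before and at 44.5 and 35.7 CPM in WT after adhesion. In E6 it was at 78.7 and 72.2 CPM before and at 65.9 and 63.1 CPM after adhesion. The lowest E6 library was 1 of the 2 after adhesion and still lay above all 4 WT libraries. Cadm1 rose in E6 by a log2 FC of 0.81 ± 0.10 (SE), 1.75-fold, with an FDR of 0.00273 by edgeR, and it passed both limits in all 8 fits that left out 1 library and in the 7 other alternatives. Before adhesion the log2 FC was 0.93 (FDR = 0.0156) and after adhesion 0.69 (FDR = 0.0291). In each of these separate contrasts the FDR limit was passed only in the 2 fits without a library of WT after adhesion, and in the other 6 fits that left out 1 library FDRs reached 0.178 before and 0.208 after adhesion.

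Cadm4 lies on the plus strand of chromosome 7 (24482023 to 24504539). It was at 37.0 and 35.5 CPM in WT before and at 21.8 and 38.0 CPM in WT after adhesion. Cadm4 in E6 was at 42.9 and 41.2 CPM before and at 34.5 and 33.0 CPM after adhesion. The groups overlapped, and the log2 FC of 0.19 ± 0.17 (SE) did not pass by edgeR (FDR = 0.454; 95% CI -0.20 to 0.58). It was 0.035 without replicate 1 of WT after adhesion and 0.43 without replicate 2, both under the FC limit. After adhesion the value was 0.17, and it turned to -0.14 without the first of these libraries. The ratio of Cadm1 to Cadm4 in CPM was 1.75 to 1.91 in the E6 libraries and 0.941 to 1.14 in 3 WT libraries, with 2.04 in that replicate.

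Mllt4, the gene of afadin, lies on the plus strand of chromosome 17 (13760539 to 13906150) and shares 221 bases or 2.16% of its exons with Tcte2 on the opposite strand. It was at 525 and 505 CPM in WT before and at 581 and 482 CPM in WT after adhesion. E6 had 531 and 561 CPM before and 584.1 and 583.7 CPM after adhesion. Replicate 1 of WT after adhesion lay within the E6 range. The log2 FC was 0.11 ± 0.090 (SE) with an FDR of 0.426 by edgeR, and its 95% CI of -0.10 to 0.32 did not reach the FC limit. Without that replicate the log2 FC was 0.20, under the FC limit.

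**Figure D2:**
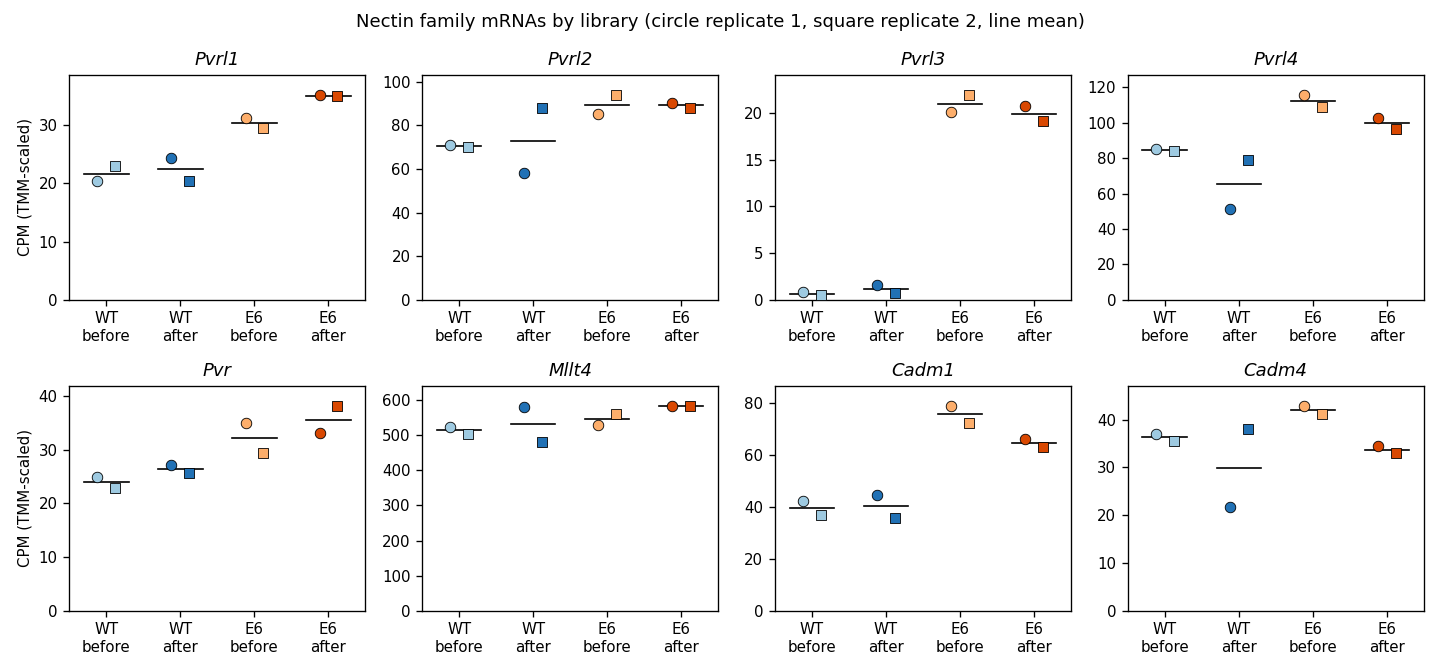
Level of each of the 8 mRNAs in CPM (TMM-scaled, axis from 0) in WT and E6 before and after adhesion, with circles for replicate 1, squares for replicate 2 and lines for the mean of 2 libraries. Pvrl3 lies at 1.63 CPM or below in WT and at 19.2 CPM or above in E6, and the WT after adhesion circle is low for Pvrl2, Pvrl4 and Cadm4.

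Of the 7 genes other than Pvrl3, Cadm1 passed both limits in E6 against WT averaged over adhesion, where 11.3% of all tested genes did. With the FDR limit alone 4 passed (Cadm1, Pvr, Pvrl1 and Pvrl4), where 20.9% of all tested genes did. Among these 7 the 4 E6 libraries lay above the 4 WT libraries for Pvrl1, Pvrl4, Pvr and Cadm1 (15.7% of tested genes). The log2 FCs of the 7 ran from 0.11 (Mllt4) to 0.81 (Cadm1), and the median of all tested genes was -0.013. None of the 7 had a lower mean in E6, and 48.5% of all tested genes had a log2 FC above 0. Nothing is read from these shares, as the list was drawn up with earlier results known.

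Before adhesion Cadm1 was the 1 of these 7 genes that passed both limits, where 5.01% of tested genes did. The 2 E6 libraries lay above the 2 WT libraries for all 7 (35.4% of tested genes). After adhesion Pvrl1 passed as well (log2 FC of 0.65 ± 0.14 (SE), FDR = 0.0318 by edgeR), where 8.91% of tested genes did. The libraries did not overlap for any of the 7 except Cadm4, with E6 above WT (26.8% of tested genes). For Pvrl2 (87.90 against 87.89 CPM) and Mllt4 (583.7 against 581.2 CPM) the nearest libraries of both groups were apart by less than the spread between replicates. With GC correction Pvrl1 after adhesion had an FDR of 0.263. Without replicate 2 of WT after adhesion, Cadm1 and Pvrl1 after adhesion were under the FC limit, with log2 FC of 0.56 and 0.55. Pvrl2, Pvrl4 and Cadm4 were then above that limit, at 0.65, 0.98 and 0.66. Without replicate 1 of WT after adhesion these 3 were at 0.052, 0.36 and -0.14, and Mllt4 was at 0.31. Both contrasts use different libraries, but the fit shares 1 estimate of spread.

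**Figure D3:**
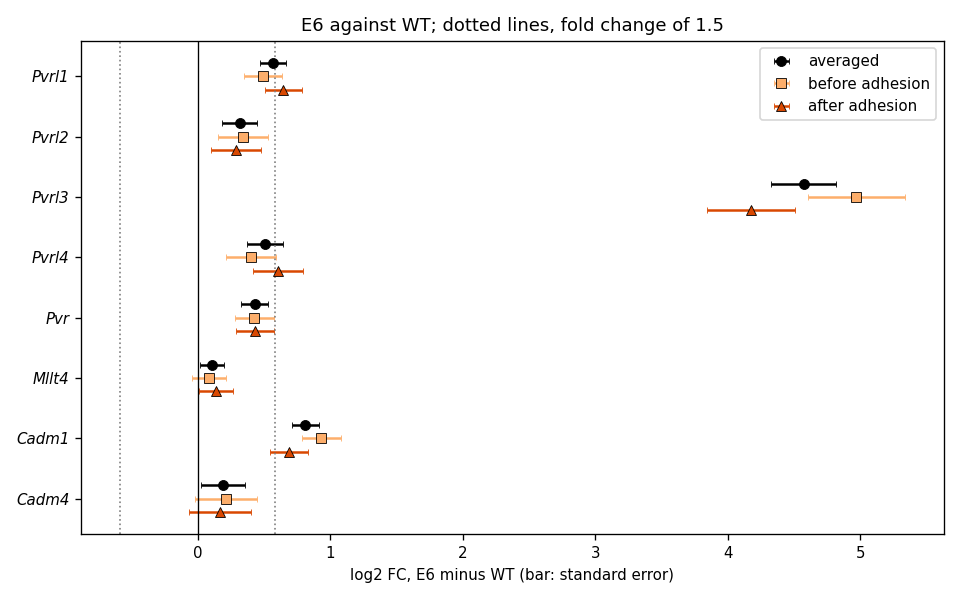
log2 FC of E6 against WT for each gene, averaged over adhesion (circles), before (squares) and after adhesion (triangles), with bars for the standard error and dotted lines at a fold change of 1.5. Pvrl3 is at 4.57 averaged and is a description without a test; the other 7 genes lie between 0.11 (Mllt4) and 0.81 (Cadm1) when averaged.

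Culture time differed between the libraries. There were 5 libraries cultured for 12 h (2 of E6 and 3 of WT). Leaving Pvrl3 aside, E6 lay above WT there without overlap for Pvrl1, Pvrl2, Pvrl4, Pvr and Cadm1 (22% of tested genes). Among the 3 cultured for 24 h (2 of E6 and 1 of WT), it did so for Pvrl1, Pvrl4, Pvr, Mllt4 and Cadm1 (39% of tested genes). Pvrl2 had a log2 ratio of 0.45 at 12 h and -0.0011 at 24 h.

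Thymocyte adhesion was compared next, since contact with thymocytes is the treatment of the study. None of the 8 genes passed the limits averaged over WT and E6, where 1.89% of tested genes did. None passed in WT, where 0% of tested genes did, or in E6, where 2% did. By edgeR none of the 8 had an unadjusted p under 0.05 in these 3 contrasts, where 9.89% (averaged), 7.48% (WT) and 6.97% (E6) of tested genes did. By DESeq2 none of the 8 passed the limits or had an unadjusted p under 0.05 either. Over all genes in WT, 873 had an unadjusted p under 0.05 by edgeR and DESeq2 called 59. In these mixed cultures more thymocyte RNA and more mRNA per epithelial cell cannot be told apart, and the thymocyte marker sum was 132 to 161 CPM in E6 after adhesion and 26.3 to 36.9 CPM in WT after adhesion. Its part in these values was not tested.

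For the nectins the averaged log2 FC of adhesion was 0.13 ± 0.099 (SE) for Pvrl1, 0.021 ± 0.13 for Pvrl2, 0.32 ± 0.26 for Pvrl3 and -0.27 ± 0.13 for Pvrl4. The averaged value was 0.15 ± 0.10 for Pvr, 0.073 ± 0.090 for Mllt4, -0.10 ± 0.10 for Cadm1 and -0.30 ± 0.17 for Cadm4. The 95% CI for Mllt4 was -0.14 to 0.28 and that for Pvr -0.095 to 0.39, both within a fold change of 1.5 in either direction, as were those of Pvrl1, Pvrl2 and Cadm1. That of Pvrl4 ran from -0.58 to 0.040, and the intervals of Pvrl3 (-0.30 to 0.94) and Cadm4 (-0.68 to 0.090) extended past that fold change.

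Between the 2 libraries before and the 2 after adhesion in E6 there was no overlap for 5 genes (55.2% of tested genes), with Pvrl1 and Mllt4 higher after adhesion and Pvrl4, Cadm1 and Cadm4 lower. In E6, Cadm1 was at 78.7 and 72.2 CPM before against 65.9 and 63.1 CPM after adhesion, a log2 FC of -0.23 (95% CI -0.56 to 0.11). In WT there was no overlap for Pvr, higher after adhesion, and Pvrl4, lower (31.1% of tested genes). When only the 4 E6 libraries were fitted, Cadm4 passed the FDR limit with a log2 FC of -0.29 (FDR = 0.0354 by edgeR), under the FC limit.

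The adhesion values in WT depended on replicate 1 of WT after adhesion. That library was at 51.6 CPM for Pvrl4 against 82.9 ± 3.3 CPM (SD, n = 3) in the other WT libraries, at 21.8 against 36.8 ± 1.2 CPM for Cadm4 and at 57.9 against 76.4 ± 9.98 CPM for Pvrl2. For Pvrl3 it was at 1.63 against 0.661 ± 0.14 CPM. Without it, the log2 FC of adhesion in WT was -0.10 for Pvrl4, 0.060 for Cadm4, 0.021 for Pvrl3 and 0.31 for Pvrl2, all under the FC limit. That contrast sets 1 library cultured for 24 h against 2 cultured for 12 h. Adhesion and culture time cannot be told apart in it. Without replicate 2 of WT after adhesion, replicate 1 is alone in its condition. The log2 FC of adhesion in WT was then 1.27 for Pvrl3, -0.73 for Pvrl4 and -0.75 for Cadm4.

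**Figure D4:**
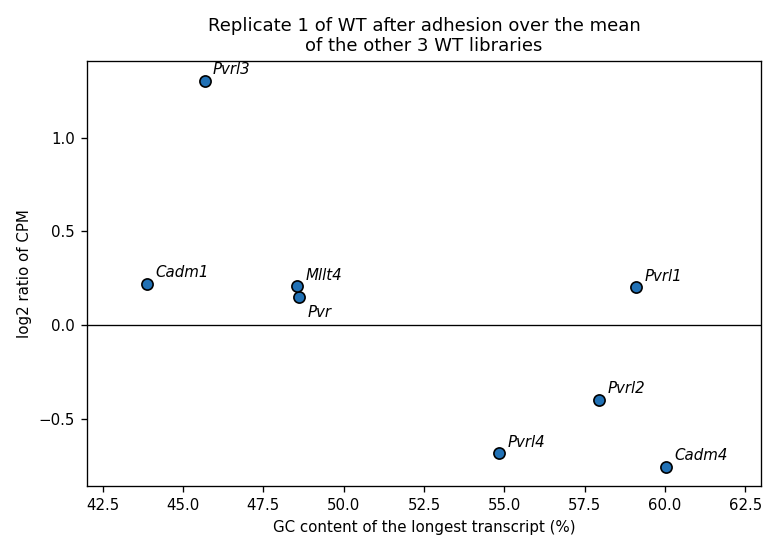
log2 ratio of CPM in replicate 1 of WT after adhesion over the mean of the other 3 WT libraries, against the GC content of the longest transcript in percent, with 1 point per gene. Pvrl2, Pvrl4 and Cadm4, at 54.8% to 60.0% GC, lie below 0, Pvrl1 at 59.1% lies at 0.20 and Pvrl3 at 45.7% lies at 1.30.

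The difference of the adhesion effects between E6 and WT was tested by the interaction. None of the 8 genes and 0% of the 11672 tested genes passed by edgeR. At an unadjusted p under 0.05 there were 297 genes (2.54%), none of the 8 among them, and DESeq2 called 2 genes, none of the 8. The log2 differences were -0.25 ± 0.20 (SE) for Cadm1, 0.20 ± 0.27 for Pvrl4 and 0.15 ± 0.20 for Pvrl1. For Pvrl3 it was -0.80 ± 0.53, and -0.073 without replicate 1 of WT after adhesion, where adhesion and culture time differed together in WT. Without replicate 2 of WT after adhesion it was -1.34.

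**Figure D5:**
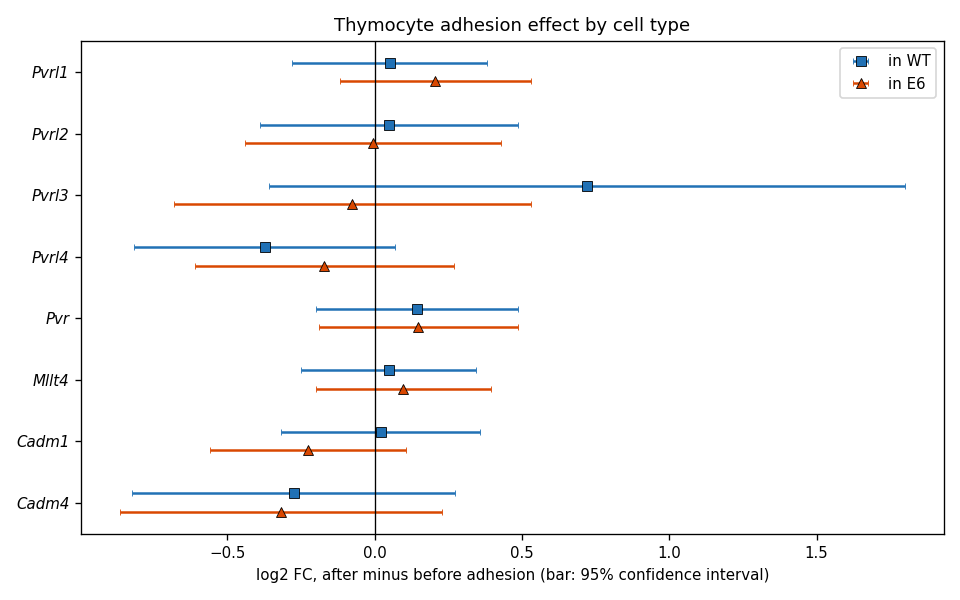
log2 FC after against before adhesion for each gene in WT (squares) and in E6 (triangles), with bars for the 95% confidence interval. All 16 intervals include 0, and the widest is that of Pvrl3 in WT, from -0.36 to 1.80.

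Other genes of the nectin pathway were taken from 5 lists of 66 genes, of which 61 were among the symbols used here and 52 passed the filter. Of the 52, 5 were higher and 6 lower in E6 averaged over adhesion, and 41 were not called. That is 21.2% against 11.3% of all tested genes (5.22% higher and 6.13% lower). The 6 lower include Cdh2, which passed the filter only through WT, where it is higher. The lists were chosen with earlier results of these data known, so nothing is read from this share. The count fell to 3 when replicate 1 of E6 before adhesion was left out, and was 4 to 6 without any 1 of the other 3 E6 libraries or the 2 libraries of WT before adhesion. None passed for adhesion averaged, where 1.89% of tested genes did, and this changed without replicate 2 of WT after adhesion. The other nectin-like genes Cadm2 and Cadm3 had 0 counts in all libraries.

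Among the receptors of nectins and nectin-like molecules, Tigit, the receptor of Pvr, nectin-2 and nectin-3, rose in E6. It was at 8.44 and 8.92 CPM in WT before and at 6.53 and 6.48 CPM in WT after adhesion. In E6 it was at 13.5 and 17.8 CPM before and at 11.8 and 10.6 CPM after adhesion. The log2 FC was 0.82 ± 0.13 (SE) with an FDR of 0.00625 by edgeR, and both limits were passed in all 8 fits that left out 1 library. Tigit was counted before adhesion in libraries in which Cd8b1, Cd247 and Dntt had 0 counts. Of the other thymocyte markers, Gata3 (82 to 96 counts), Tcf7 (2 to 11) and Lat (3 to 5) were counted in each of these libraries. No other annotated gene shares the exons of Tigit. The cells that its reads came from were not tested. Cd96 had 0 counts in the 4 libraries before adhesion and in 1 WT library after adhesion, and 9, 12 and 13 counts in the other 3. Cd226 and Crtam were at or under 0.0149 CPM on average.

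Of 23 adaptors and junction partners of afadin and nectins, 1 was higher and 3 were lower, against 5.22% and 6.13% of all tested genes. Sorbs2, an adaptor protein with SH3 domains, rose from 70.0 to 105.7 CPM (log2 FC of 0.60, FDR = 0.0168 by edgeR). Mpdz, a tight junction scaffold with many PDZ domains, fell from 54.3 to 35.0 CPM (log2 FC of -0.63, FDR = 0.00492 by edgeR). Cdh2, the gene of N-cadherin, had 0 counts in all E6 libraries and 1 to 13 counts in WT, at least 2.63-fold lower in E6 with a floor of 3 counts per library. Cdh2 passed the filter on low counts only through WT, where it is higher, so that its place among the 3 lower genes is no support for a difference. Sorbs2 passed both limits in 1 of the 8 fits that left out 1 library, Cdh2 in 2 and Mpdz in 7. Sorbs2 shares 3.77% of its exon bases with an antisense gene.

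Of 17 tested signalling genes downstream of nectins, 3 were higher and 1 was lower, against 5.22% and 6.13% of all tested genes. Src, the kinase activated at nectin contacts, rose from 106.3 to 172.9 CPM (log2 FC of 0.70, FDR = 0.0261 by edgeR). Vav2, an exchange factor for Rac, rose from 32.1 to 50.3 CPM (log2 FC of 0.64, FDR = 0.0216), and Rap1gap, which inactivates Rap1, rose from 4.70 to 10.2 CPM (log2 FC of 1.12, FDR = 0.0283). Fgfr1, a fibroblast growth factor receptor, fell from 9.71 to 1.03 CPM (log2 FC of -3.24, FDR = 0.000155). Fgfr1 passed in all 8 fits that left out 1 library, whereas Src and Vav2 passed in 1 and Rap1gap in 2. With GC correction, with or without a replicate block, Vav2 was at 0.55, under the FC limit. Replicate 1 of WT after adhesion was the lowest library for these 3, with 71.2 CPM for Src.

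Of 10 tested partners of Cadm proteins, none was higher and 2 were lower, against 5.22% and 6.13% of all tested genes. Erbb3, a receptor of the epidermal growth factor receptor family, fell from 118 to 69.2 CPM (log2 FC of -0.77, FDR = 0.00247 by edgeR) and passed in all 8 fits that left out 1 library. Mpp2, a membrane-associated guanylate kinase, fell from 2.21 to 0.834 CPM (log2 FC of -1.38, FDR = 0.0122) and passed in 4.

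For the 5 genes whose E6 libraries did not overlap WT, the genes of most similar pattern were sought among 10292 genes by the root-mean-square difference in gene-centred log2 CPM over the 8 libraries. The closest to Pvrl3 was Chst1 (0.446), a sulfotransferase gene that went from 0.405 CPM in WT to 11.04 CPM in E6. Clip4 (0.749) and Lgals3bp (0.757) came next. For Pvrl1 they were Atxn1 (0.0639), Dock5 (0.0660) and Ano9 (0.0770), and for Pvrl4 they were Sorcs2 (0.0420), Ctsd (0.0478) and Ggact (0.0503). The closest to Pvr were Prkab1 (0.0663), Slc12a7 (0.0766) and Senp5 (0.0815), and those to Cadm1 were Tada2b (0.0876) and Pmepa1 (0.0978). The 8 libraries share their depth and the library that stood apart, so these values are a description.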

How the data were processed

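The deposited values were counts of reads per gene for each of the 8 libraries, made by the authors with HTSeq from paired-end Illumina reads that they aligned to mm10 (GRCm38) with STAR 2.5.0a, without normalization. Annotation and strand setting of the counting are not given in the sources used here, and labels and paper name different TruSeq kits. In 1 library 18 symbols appeared as dates; they were repaired by row position. Genes were filtered with filterByExpr, scaled with TMM and fitted in edgeR 4.0.16 (R 4.3.3) with 1 mean per condition over all 8 libraries. Quasi-likelihood tests were adjusted by Benjamini-Hochberg over 11672 genes. Genes with an FDR under 0.05 and a fold change of at least 1.5 were called. SE is the log2 FC divided by the square root of F. Alternatives were RLE size factors, DESeq2 1.42.0, no filter, a GC correction, culture time, a replicate block, only the libraries compared and leaving out each library.

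The 8 genes and all lists were chosen with earlier results of these data known. Genes of the wider lists were named when they passed both limits, at most 5 per list, the genes of most similar pattern were the 3 with the smallest difference among genes whose log2 CPM averaged 1 or more, and Cd96, Cadm2, Cadm3 and further receptors were named after their values were seen. Some genes that these rules would name are not reported here. Lengths, GC content and positions are those of GENCODE on GRCm38, to which 22740 of the symbols matched directly, 935 by an older name and 377 not. A count of 3 was taken as the floor, 0.149 to 0.222 CPM per library; floors cover counting error only. Promoters are from RefSeq.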

Additional observations from a re-analysis of the deposited data

Results flagged for a closer look

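Cadm4 in replicate 1 of WT after adhesion, at 21.8 CPM, lay far from the other 3 WT libraries (35.5 to 38.0 CPM). Its gap to the nearest of them was 0.848 of the range of the 4 WT libraries. That is above the 95% limit of Dixon's test for 4 values, which chance exceeds in about 1 of 20 groups. These 4 libraries are not replicates of 1 condition, as they come from before and after adhesion. The limit was not adjusted for the number of groups looked at. The Cadm4 transcript has 60.0% GC, and log2 levels in this library fell by 0.445 per 10% of GC. Its log2 ratio over the mean of the other 3 WT libraries was -0.76. Pvrl1, at 59.1% GC, was at 0.20 and Pvrl4, at 54.8% GC, at -0.69. The cause of the low Cadm4 value was not tested.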

How the results depend on the processing

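Numbers for E6 against WT include Pvrl3, whose value there is a description, and say nothing about it. The number of the 8 genes past both limits in E6 against WT averaged over adhesion was 2, and 5 with no fold change limit. After adhesion it was 3, and 0 when only the libraries compared were fitted. Leaving out each library gave 2 to 3 averaged, 1 to 2 before and 1 to 4 after adhesion, and for adhesion 0 to 1 averaged, 0 to 3 in WT, 0 in E6 and 0 to 1 for the difference of adhesion effects. For the wider lists it gave 3 to 11 in E6 against WT and 0 to 2 for adhesion.

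Replicate numbers were labels only, but in E6 they went with culture time, with 24 h in replicate 1 and 12 h in replicate 2. In WT after adhesion this was reversed, and both WT libraries before adhesion had 12 h. A replicate block therefore cannot be told apart from culture time in E6. Deviations of same-numbered libraries from their group means correlated at 0.222 between WT before and after adhesion and at -0.079 to 0.023 between the other conditions. With a replicate block, Cadm1 passed both limits in E6 against WT averaged, before and after adhesion. Pvrl1 after adhesion had an FDR of 0.0562 by edgeR with that block.

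Small log2 FCs changed sign, none of them past the limits in the fit of all libraries, and the cause was not tested. For Pvrl2 adhesion in E6 turned from -0.0056 to 0.0085 with RLE, 0.0075 with DESeq2, 0.0157 with no filter, 0.0284 with GC correction, 0.029 with the block and GC correction and 0.0196 with only the libraries compared. With culture time in the model, Pvrl2 adhesion was -0.0301 averaged and -0.0493 in WT, and the difference of adhesion effects was 0.0383 for Pvrl2, 0.1382 for Cadm4, -0.0018 for Mllt4 and -0.0014 for Pvr. With GC correction Cadm1 adhesion in WT was -0.0914 (-0.0883 with the block) and the Pvrl1 difference -0.0158.

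Leaving out each library gave for adhesion in WT -0.0803 to 0.1653 for Pvrl1, -0.2984 to 0.3107 for Pvrl2, -0.0977 to 0.1626 for Mllt4, -0.1521 to 0.1548 for Cadm1 and -0.75 to 0.0602 for Cadm4. For adhesion averaged it gave -0.1478 to 0.1647 for Pvrl2 and -0.0156 to 0.6018 for Pvrl3, and for adhesion in E6 -0.0768 to 0.0628 for Pvrl2. For the difference it gave -0.2921 to 0.3012 for Pvrl2, -0.0397 to 0.5706 for Pvrl4, -0.1185 to 0.1342 for Pvr, -0.0547 to 0.2214 for Mllt4 and -0.3512 to 0.4433 for Cadm4. Cadm4 in E6 against WT after adhesion ranged from -0.1403 to 0.6551.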
